A study of Mus musculus with 26 samples.

Results

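The transcripts of 9 genes of germ cells and meiosis, Stra8, Dazl, Ddx4, Mael, Sycp1, Sycp3, Hormad1, Smc1b and Tex101, were followed in mouse R1 embryonic stem cells (ESCs). They were found by symbol in a count table of 55291 genes, and all 9 were among the 20953 genes with enough reads to be tested. The RNA came from 26 libraries in 13 groups of 2, all of cells grown on gelatin in medium with leukemia inhibitory factor. Untreated cells formed the ESC group. DMSO cells received the solvent for a time not given in the labels. RA cells received 0.53 µM retinoic acid for 48 h, and PlaB cells received 4 nM pladienolide B, an inhibitor of the spliceosome, for 4 days. Zscan4, Dux or Dux R70A, a Dux protein with a point substitution, was overexpressed (OE) by 4 µg/mL doxycycline for 24 h, whereas the ESC group received no doxycycline. Dux knockdown (KD) by shRNA was combined with RA, PlaB or Zscan4 OE, using shRNAs that the study took from earlier work and that the labels do not identify. Deletion of the Tdpoz super-enhancer (SE KO) was combined with RA, PlaB or Dux OE, and whether the deleted line is a single clone was not stated. The labels give no dose or time for Zscan4 induction in Dux KD Zscan4 OE cells. The genotype label of SE KO RA replicate 1 reads wild type while its title reads SE KO, so the comparison of that group with RA is also given without it. The study describes the SE KO RA and SE KO Dux OE libraries as biological replicates. For the other groups nothing in the labels says that the 2 libraries came from separate cultures, and p-values then measure the spread between libraries, which may be technical.

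Meiosis is the reductive division that makes gametes, and its genes are silent or weakly transcribed in most other cells. Stra8 is the retinoic acid-induced protein with which germ cells enter meiosis. Dazl and Ddx4 (Vasa) are RNA-binding and RNA helicase proteins that mark germ cells, and Mael works in the piRNA pathway that silences transposons. Sycp1 and Sycp3 build the synaptonemal complex that joins homologous chromosomes, Hormad1 lies along the unsynapsed chromosome axis, and Smc1b is a cohesin subunit of meiotic chromosomes. Tex101 is a surface glycoprotein of germ cells needed for sperm function. In ESCs many germline genes are kept low by DNA methylation and by a Polycomb complex (PRC1.6) with the E-box binding partners MGA and MAX and the factor E2F6.

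The 9 genes lie on 8 chromosomes of GRCm38 (known as mm10), the build of the deposited counts. Stra8 lies at chr6:34920163-34939344, Sycp3 at chr10:88459569-88473236 and Hormad1 at chr3:95559677-95587671, all on the plus strand. Dazl lies at chr17:50279395-50293636, Ddx4 at chr13:112598333-112652475, Mael at chr1:166201201-166238747, Sycp1 at chr3:102818499-102936100, Smc1b at chr15:85064689-85131964 and Tex101 at chr7:24668007-24676675, all on the minus strand. Values are for whole genes, summed over exons. Promoter windows of the 9 genes were read from RefSeq (GRCm38.p6), from 250 bases before to 50 bases after each annotated start. The windows of Stra8 and of Tex101 (chr7:24672001-24672300) lie wholly inside the gene spans given above. Their matches are thus counted from a start inside the gene. Windows of 5 genes are printed because they hold matches to 3 motifs or, for Dazl, none. Capitals mark the E-box CACGTG, the E2F motif GGCGGGA (or TCCCGCC, its reverse complement) and the nuclear receptor motif AGGTCA, each searched on both strands.

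Stra8, chr6:34920698-34920997, plus strand: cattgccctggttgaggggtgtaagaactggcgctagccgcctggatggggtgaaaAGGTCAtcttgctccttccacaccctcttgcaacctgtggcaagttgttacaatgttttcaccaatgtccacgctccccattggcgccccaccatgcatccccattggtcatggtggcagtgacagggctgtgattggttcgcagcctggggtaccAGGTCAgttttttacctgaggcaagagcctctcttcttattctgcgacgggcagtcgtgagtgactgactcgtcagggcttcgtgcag

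Sycp3, chr10:88459337-88459636, plus strand: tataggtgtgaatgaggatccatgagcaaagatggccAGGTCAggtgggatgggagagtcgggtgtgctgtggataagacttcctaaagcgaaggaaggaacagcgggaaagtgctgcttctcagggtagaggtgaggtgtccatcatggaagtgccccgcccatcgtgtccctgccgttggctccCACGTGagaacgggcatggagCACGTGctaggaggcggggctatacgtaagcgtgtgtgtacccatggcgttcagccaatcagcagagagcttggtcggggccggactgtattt

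Mael, chr1:166238695-166238994, minus strand: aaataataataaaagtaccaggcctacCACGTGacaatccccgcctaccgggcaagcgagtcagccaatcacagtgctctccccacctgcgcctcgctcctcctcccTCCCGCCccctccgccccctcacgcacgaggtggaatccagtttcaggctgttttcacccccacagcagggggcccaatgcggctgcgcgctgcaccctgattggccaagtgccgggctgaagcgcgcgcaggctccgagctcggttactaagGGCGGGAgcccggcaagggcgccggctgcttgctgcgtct

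Hormad1, chr3:95559427-95559726, plus strand: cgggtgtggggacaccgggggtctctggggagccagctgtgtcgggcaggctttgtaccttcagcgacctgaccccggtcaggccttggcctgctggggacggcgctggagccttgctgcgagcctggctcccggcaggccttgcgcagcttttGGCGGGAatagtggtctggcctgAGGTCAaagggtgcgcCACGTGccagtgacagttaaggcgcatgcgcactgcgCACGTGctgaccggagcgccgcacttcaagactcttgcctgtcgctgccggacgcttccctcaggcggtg

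Dazl, chr17:50293571-50293870, minus strand: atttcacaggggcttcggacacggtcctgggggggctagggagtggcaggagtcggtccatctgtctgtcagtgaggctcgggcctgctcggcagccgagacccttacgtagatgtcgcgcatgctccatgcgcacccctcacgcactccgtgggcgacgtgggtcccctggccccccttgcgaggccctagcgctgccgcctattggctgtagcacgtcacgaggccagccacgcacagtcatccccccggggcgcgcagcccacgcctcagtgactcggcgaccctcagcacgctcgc

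The E-box lay in 5 of the 9 promoters (55.6%), those of Ddx4, Sycp1, Sycp3, Mael and Hormad1, and in 7.15% of all 32851 RefSeq windows. Counted from the start site to the first base of the match, Sycp3 held it at −64 and −43 and Hormad1 at −57 and −20, while Ddx4, Sycp1 and Mael held 1 match each. The E2F motif lay in Ddx4, Mael and Hormad1 (33.3%), against 11.3% of all windows. The nuclear receptor motif lay in Stra8, at −194 and −38, and in Sycp3 and Hormad1 (33.3%), against 16.3% of all windows. Dazl, Tex101 and Smc1b held no match to these letters in their windows. No match overlapped another. Each of the 9 windows held 10 to 38 CpG dinucleotides, against a median of 7 over all windows. CACGTG and GGCGGGA each contain a CpG, and the shares over all windows were not matched for CpG content. A match describes the letters of the window and is not a measured binding site.

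**Figure D1:**
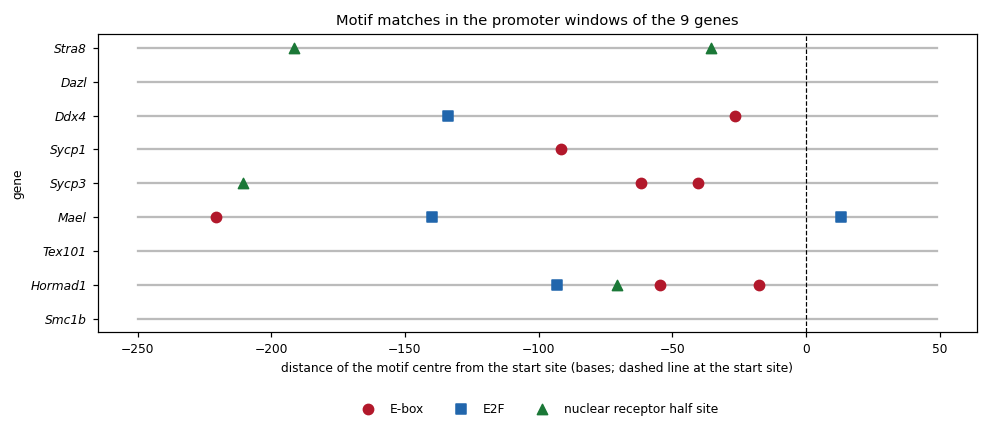
Centres of the matches to the 3 motifs in the promoter windows of the 9 genes, in bases from the annotated start site (x axis), with each gene on a line of its own (y axis) and each mark standing for a match on either strand. The E-box marks fall in 5 of the 9 genes, and the lines of Dazl, Tex101 and Smc1b carry no mark.

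Library totals ran from 14401452 to 39402840 assigned reads (median 18276934), so that 3 counts, the level below which a gene was not called present, corresponded to 0.0796 to 0.226 CPM, the unit of read counts scaled to a common library size. Values below are CPM after trimmed mean of M-values (TMM) scaling, for replicate 1 and replicate 2 of a group in that order. Statements that libraries of groups overlap or lie apart describe the values and are not tests. The share of all genes that lie apart in the same way was not counted. Genes were tested with the quasi-likelihood F-test of edgeR, adjusted by Benjamini-Hochberg over the 20953 genes, and one was called higher or lower where the adjusted p was under 0.05 and the log2 change was 1 or more in size. Of 6 pluripotency markers, 6 were detected in each group, and their summed level ran from 2720 CPM in SE KO RA to 5584 CPM in Dux KD Zscan4 OE. In bulk RNA, fewer cells of a type and less RNA per cell cannot be told apart. The targeted gene, read as Duxf3, 1 copy of a tandem repeat whose reads may be shared between copies, was at 2.16 and 2.75 CPM in RA and at 0.918 and 0.353 in Dux KD RA (log2 −1.93 ± 0.46 SE, adjusted p = 0.0015). It was at 9.25 and 8.21 CPM in PlaB against 1 and 0 counts in Dux KD PlaB, and at 1.75 and 0.923 CPM in Zscan4 OE against 1 and 0 counts in Dux KD Zscan4 OE. The libraries of Dux KD PlaB and SE KO PlaB stood apart from PlaB over the whole transcriptome. Among 10778 genes that PlaB moved against DMSO, Dux KD PlaB kept a median ratio of 0.110 of the response and SE KO PlaB 0.229, and groups that received no PlaB gave 0.0741 to 0.211. Dux KD RA kept 0.865 and SE KO RA 0.713 of the response of 5284 genes to RA, and groups that received no RA gave 0.229 to 0.545. Of the response of 1614 genes to Zscan4 OE against ESC, Dux KD Zscan4 OE kept 0.460, and groups without Zscan4 OE gave 0.245 to 0.718.

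Stra8 had the widest range of the 9 genes, and its 3 highest groups were the 3 that received RA. Group means were 784 CPM in RA, 763 in SE KO RA and 610 in Dux KD RA, and the next group, PlaB, was at 44.1. The lowest was Dux KD PlaB at 1.42 CPM, 550.2 times under RA. Below PlaB the order was SE KO PlaB (35.4), Dux R70A OE (27.0), DMSO (19.5), SE KO Dux OE (19.24), Dux OE (16.1), Zscan4 OE (13.7), ESC (9.41) and Dux KD Zscan4 OE (2.49). Replicates of neighbours in this order overlapped in 4 of 12 pairs, RA with SE KO RA, DMSO with SE KO Dux OE, Dux OE with Zscan4 OE and the lowest pair.

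Dazl was highest in Dux KD RA, at 113 CPM, and lowest in DMSO, at 3.68 CPM, 30.6 times apart. Between them lay SE KO PlaB (65.6), RA (52.8), PlaB (52.5), Zscan4 OE (40.1), Dux KD Zscan4 OE (33.1), Dux KD PlaB (29.2), SE KO RA (19.7), Dux OE (14.02), SE KO Dux OE (12.8), Dux R70A OE (8.78) and ESC (7.30). Here 4 of 12 neighbour pairs overlapped, among them SE KO PlaB with RA and RA with PlaB. Dazl thus had a middle level in groups where Stra8 was lowest.

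Tex101 was near the detection floor in most groups and high in PlaB. PlaB had 23.9 and 25.5 CPM, SE KO PlaB 3.38 and 6.43, Dux KD RA 2.07 and 2.24 and RA 1.85 and 1.72. The 9 other groups lay between 0.0548 and 1.47 CPM per library, and each of the 8 neighbour pairs among them overlapped. DMSO, the lowest group, held 8 and 1 counts.

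Mael ran from 7.80 CPM in DMSO to 42.4 in SE KO PlaB (5.43 times), with PlaB next at 40.7 and RA at 23.2. Ddx4 had a narrow range, from 15.1 CPM in ESC to 51.8 in SE KO PlaB (3.44 times), with 6 of 12 neighbour pairs overlapping. Sycp1 was the flattest of the 9, from 4.85 CPM in PlaB to 14.7 in Dux KD RA (3.04 times), and 10 of 12 neighbour pairs overlapped. Sycp3 ran from 1.38 CPM in ESC to 11.4 in PlaB (8.21 times). Of the 1264 exon bases of Sycp3, 660 also belong to Chpt1 on the opposite strand, and the strand setting of the counting was not given in the sources used here, so Sycp3 values are uncertain. Chpt1 itself differed by log2 0.50 in Zscan4 OE, 1.05 in Dux R70A OE and 0.59 in DMSO, each against ESC cells, 3 comparisons in which Sycp3 was called higher by 2.54 to 2.88. Over the 13 comparisons Chpt1 ran from −1.28 in SE KO RA to 2.55 in RA, where Sycp3 was at 0.26 and −0.57, and in SE KO PlaB, where Sycp3 was called lower (−1.03), Chpt1 was at 0.83.

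Hormad1 and Smc1b, both proteins of the chromosome axis, each had the highest mean in a group with Dux knockdown, while another knockdown group ranked lower. Hormad1 was at 16.1 CPM in Dux KD Zscan4 OE and at 1.29 in SE KO RA (12.5 times), with SE KO PlaB (13.2), Zscan4 OE (12.9), Dux KD RA (10.8) and PlaB (10.2) in the upper part. Smc1b was at 26.7 CPM in Dux KD PlaB and 21.0 in Dux KD Zscan4 OE, and at 2.56 in RA, the lowest group (10.5 times). Hormad1 in Dux KD PlaB was at 8.13 CPM, below PlaB, and Smc1b in Dux KD RA was at 8.35 CPM, below DMSO (10.3). Per kilobase of exon, the scale on which genes can be compared, levels in ESC cells were highest for Stra8 (5.22 CPM per kb), Ddx4 (4.99) and Mael (4.92) and lowest for Tex101 (0.649).

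**Figure D2:**
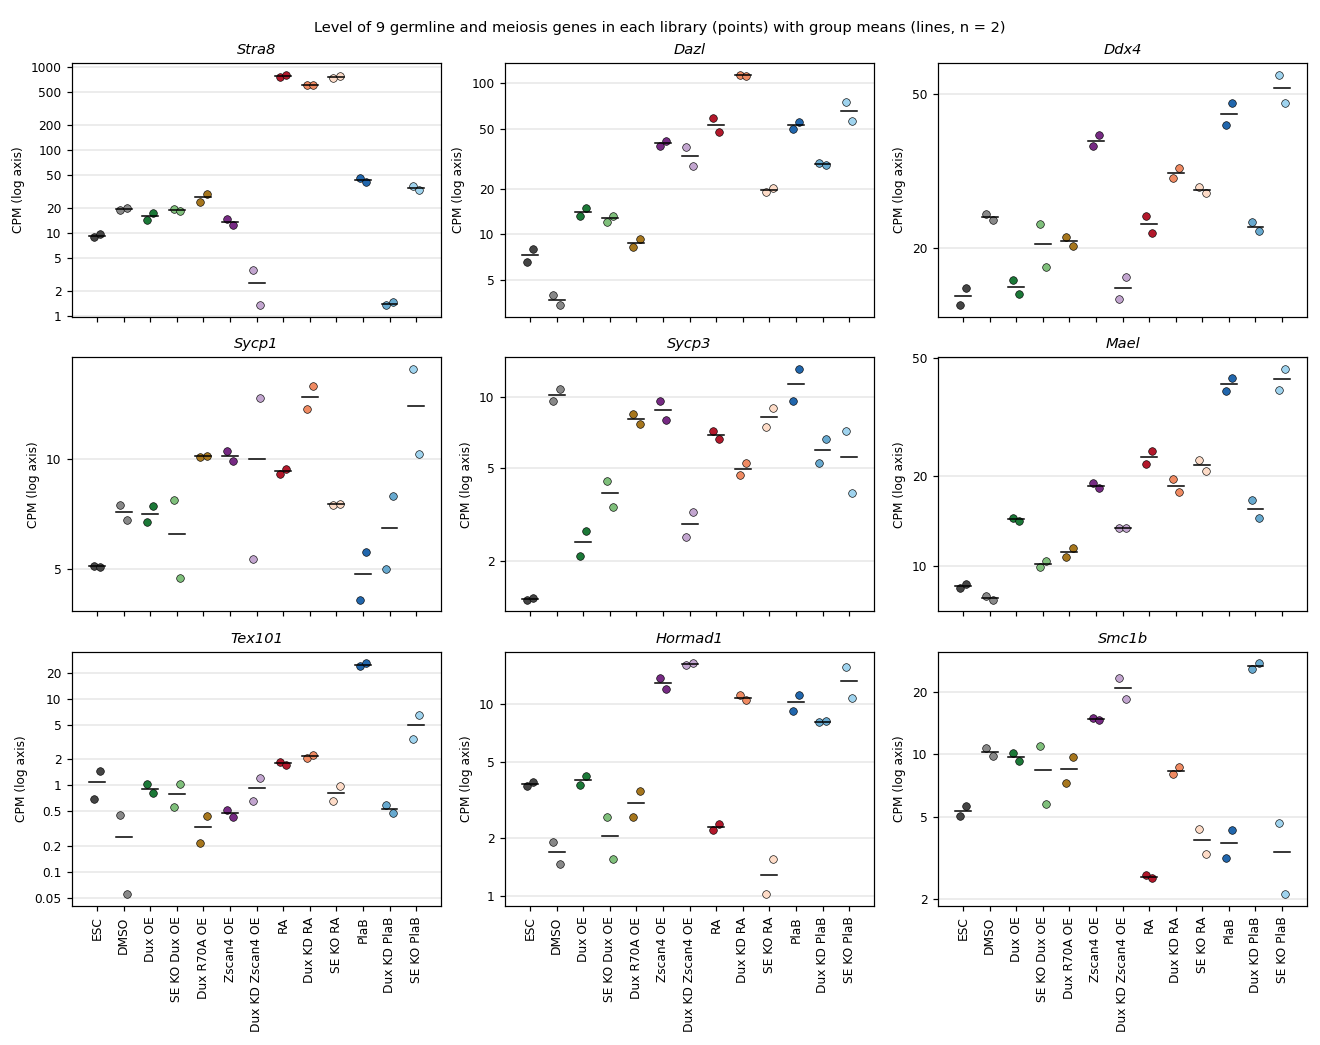
Level of each of the 9 genes (panels) in the 13 groups (x axis), in CPM on a log y axis, with each point standing for a library and each line for the mean of the 2 libraries of a group. The 3 RA groups stand above the others for Stra8, PlaB stands above the others for Tex101, and Sycp1 has the narrowest range, 3.04 times.

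The first question was how the inducers of a totipotent-like state moved these genes. Under RA, Stra8 and Dazl, the meiotic entry factor and a germ cell RNA-binding protein, rose most, Mael and Tex101 rose, and the cohesin subunit Smc1b fell. Stra8 had 18.9 and 20.1 CPM in DMSO and 755 and 813 in RA. It rose 40.2-fold (log2 5.33 ± 0.14 SE, adjusted p = 5.6e-21). Dazl had 3.97 and 3.40 CPM in DMSO and 58.4 and 47.2 in RA, a rise of 14.3-fold (adjusted p = 2.5e-16). Both RA libraries stood far above both DMSO libraries for these 2 genes. Mael rose 2.97-fold, from 7.94 and 7.67 to 21.97 and 24.34 CPM (adjusted p = 1.9e-11). Tex101 rose 6.96-fold from a level near the floor, from 8 and 1 to 42 and 37 counts (log2 2.80 ± 0.55, adjusted p = 8.1e-05). Smc1b was 4.02-fold lower, from 10.7 and 9.86 to 2.60 and 2.51 CPM (log2 −2.01 ± 0.28, adjusted p = 7.8e-07). The groups did not overlap for these 3 genes. RA thus called 5 of the 9 genes, 4 higher and 1 lower, where 31% of all tested genes were called. The median log2 change of the 9 was 0.43, against 0.11 over all tested genes. The other 4 gave log2 changes of −0.06 for Ddx4 (95% interval −0.31 to 0.18), 0.37 for Sycp1 (−0.24 to 0.98), 0.43 for Hormad1 (−0.16 to 1.01) and −0.57 for Sycp3 (adjusted p = 0.024). With ESC cells in place of DMSO as the control, the Tex101 change under RA was log2 0.74 and no longer called, Sycp3 was 2.31 higher and called (adjusted p = 9.6e-08 in edgeR), and Ddx4 (0.62) and Hormad1 (−0.74) changed sign without a call.

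Under PlaB, 6 of the 9 genes were called, 5 higher and 1 lower, where PlaB moved 58.9% of all tested genes past the same thresholds. Tex101 rose most, from 0.454 and 0.0548 CPM to 23.9 and 25.5 (494 and 563 counts), a rise of 96.0-fold (log2 6.59 ± 0.43, adjusted p = 9.1e-14). Dazl rose 14.2-fold to 49.4 and 55.6 CPM (adjusted p = 2.6e-17). The changes of Dazl under PlaB (log2 3.83 ± 0.17) and RA (3.84 ± 0.17) share the DMSO libraries. Hormad1, which RA did not call, went from 1.93 and 1.48 to 9.25 and 11.2 CPM (5.997-fold, adjusted p = 2.4e-10). Mael rose 5.21-fold to 38.7 and 42.6 CPM (adjusted p = 4.5e-16). For each of these 4 genes both PlaB libraries lay above both DMSO libraries. Stra8 rose 2.27-fold to 46.8 and 41.4 CPM (log2 1.18 ± 0.13, adjusted p = 8.4e-09), a change that was 0.99 and not called without PlaB replicate 1. Smc1b was 2.75-fold lower at 3.15 and 4.31 CPM (adjusted p = 2.3e-05), and −0.51 on the log2 scale and not called against ESC cells. Ddx4 was 0.89 higher on the log2 scale (interval 0.64 to 1.13), under the fold threshold, at 41.6 and 47.4 CPM against 24.6 and 23.6. It was called with DESeq2 size factors (1.04), library size alone (1.14), DESeq2 (1.04), which thus called 7 of the 9, and against ESC cells (1.57). Sycp1 and Sycp3 were not called (log2 −0.55 and 0.16), and against ESC cells Sycp3 was 3.03 higher and called (adjusted p = 1.2e-10 in edgeR).

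Zscan4 OE called 6 of the 9 genes higher and none of the 9 lower, in a comparison where 11.6% of all tested genes were called, 7.25% higher and 4.39% lower. Dazl went from 6.54 and 8.06 CPM in ESC to 38.6 and 41.6 (5.50-fold, adjusted p = 5.6e-12). Hormad1 went from 3.73 and 3.93 to 13.8 and 11.9 CPM (3.35-fold, adjusted p = 5e-07), and Ddx4 from 14.3 and 15.9 to 36.7 and 39.2 CPM (2.52-fold, adjusted p = 4.9e-09). Sycp3 went from 1.37 and 1.40 to 9.57 and 7.98 CPM (6.30-fold, adjusted p = 4.1e-08). Both Zscan4 OE libraries were above both ESC libraries in each case. Smc1b rose from 5.04 and 5.60 to 15.0 and 14.8 CPM (2.80-fold, adjusted p = 5.2e-05), where RA and PlaB had lowered it against DMSO. Mael rose 2.18-fold (adjusted p = 8.7e-08). Sycp1 lay just under the fold threshold (log2 0.9993, interval 0.34 to 1.66, adjusted p = 0.014), and it was called with DESeq2 size factors (1.01), library size alone (1.15), no low-count filter (1.04), the groups compared alone (1.02) or DESeq2 (1.01), which thus called 7 of the 9. Stra8 was 0.54 higher. Tex101 was at log2 −1.16 (adjusted p = 0.11), and it was called lower with the groups compared alone (−1.14, adjusted p = 0.034) or without ESC replicate 1 (−1.61, adjusted p = 0.0495). Against DMSO instead of ESC cells, 3 of the 9 genes were called, and Ddx4 (0.66), Smc1b (0.53) and Sycp3 (−0.22) were not. The number of all tested genes called was then within 1.5 times of that against ESC cells, which was 2439 of 20953 (11.6%). The share of all genes beside these 3 is given here to that bound alone.

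Dux OE called 0 of the 9 genes in edgeR, where 9.51% of all tested genes were called. DESeq2 called 0 as well, and 5 of the 9 had an unadjusted p under 0.05. The nearest were Dazl (13.2 and 14.9 CPM, log2 0.95, adjusted p = 0.00015), Smc1b (0.87, adjusted p = 0.019), Stra8 (0.78, adjusted p = 0.00073) and Mael (0.75, adjusted p = 8e-05). Each of these had both Dux OE libraries above both ESC libraries, which describes the values and is not a test. The summed level of 6 markers of the 2-cell stage rose in the same cells from 19.18 and 22.35 CPM to between 3233 and 3329 CPM. Against DMSO, 4 of the 9 genes were called after Dux OE. Dazl (1.93), Hormad1 (1.24) and Tex101, the last on few counts, were higher. Sycp3 was lower, with means of 2.41 CPM in Dux OE and 10.2 in DMSO. In that comparison 3811 of the 20953 tested genes were called.

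Dux R70A OE called 3 of the 9 genes against ESC cells, where 16.9% of all tested genes were called, 10.2% higher and 6.72% lower. Stra8 rose 2.87-fold to 23.9 and 30.1 CPM (log2 1.52 ± 0.15, adjusted p = 8.6e-09) and Sycp3 5.82-fold to 8.48 and 7.66 CPM (adjusted p = 4.5e-08). DMSO cells had mean levels of 19.5 and 10.2 CPM of these 2 genes. DESeq2 called Sycp1 as well (1.003), as did library size alone (1.23), which made 4 of the 9. Tex101 was lower, at 4 and 7 counts against 11 and 22 (log2 −1.72 ± 0.60, adjusted p = 0.022), a call lost without Dux R70A OE replicate 1 (−1.27) or ESC replicate 2 (−1.10). Against DMSO none of these 3 was called (0.47, −0.34 and 0.34). Between the 2 Dux proteins, Sycp3 was 3.34-fold higher with R70A (log2 1.74 ± 0.26, adjusted p = 7.4e-06), the sole call in edgeR among the 9 where 13.6% of all tested genes were called, 6.11% higher and 7.51% lower. Stra8 was 0.74 higher with R70A and Dazl 0.68 lower, both under the fold threshold. Tex101 was at log2 −1.50 (adjusted p = 0.063), and it was called lower by DESeq2 (−1.52, adjusted p = 0.037). Duxf3 was at 4.01 and 3.24 CPM in Dux OE, and both Dux R70A OE libraries held 0 counts of it. These reads therefore do not show the level of the R70A transcript. Whether the 2 proteins were made at equal levels was not tested.

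The 2 control groups, solvent and no solvent, differed in these genes. DMSO against ESC cells called 4 of the 9, where 16.2% of all tested genes were called, 8.32% higher and 7.91% lower. Sycp3 was 7.36-fold higher in DMSO, at 9.64 and 10.8 against 1.37 and 1.40 CPM (adjusted p = 3.9e-09). Stra8 was 2.07-fold higher, at 18.9 and 20.1 against 9.03 and 9.79 CPM (adjusted p = 4.6e-06). Hormad1 was 2.25-fold lower, at 1.93 and 1.48 against 3.73 and 3.93 CPM (adjusted p = 0.0011), and Tex101 4.16-fold lower on 9 counts in DMSO (adjusted p = 0.009). The Tex101 call was lost without DMSO replicate 2 (−1.22) or ESC replicate 2 (−1.42), and Hormad1 was at −0.99 without DMSO replicate 2. The choice of control therefore moved the values of Sycp3, Stra8, Hormad1 and Tex101 by amounts past the fold threshold. Dazl (−0.98) and Smc1b (0.95) lay just under it. Against ESC cells, Dazl rose by log2 2.86 under RA and 2.85 under PlaB, and Smc1b under RA was at −1.05. The solvent and any other difference between the DMSO and ESC groups cannot be told apart.

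**Figure D3:**
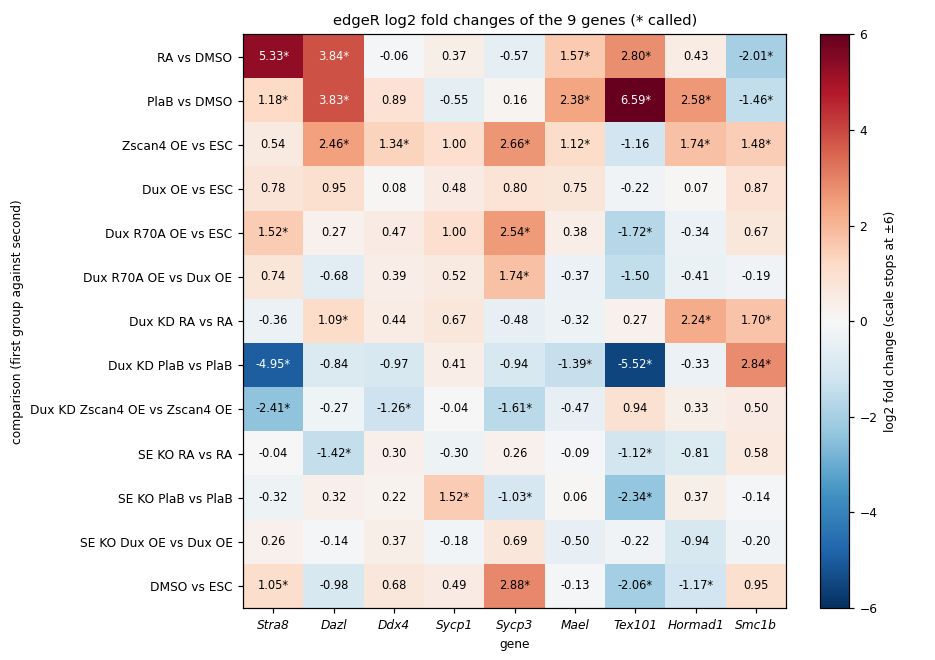
Log2 fold change of each of the 9 genes (columns) in each of the 13 comparisons (lines), coloured by size and direction, with an asterisk on each change that was called. Tex101 has the largest changes in both directions, 6.59 in PlaB against DMSO and −5.52 in Dux KD PlaB against PlaB.

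The next question was how the levels differed with Dux knockdown. No group had a control shRNA, and none had the knockdown or the deletion without an inducer. The loss of Dux or of the super-enhancer therefore cannot be told apart from other differences between the lines. In RA-treated cells, Dux knockdown called 3 of the 9 genes, all 3 higher, where 10.9% of all tested genes were called and 6.41% were higher. Dazl went from 58.4 and 47.2 CPM in RA to 114 and 112 in Dux KD RA (2.13-fold, log2 1.09 ± 0.13, adjusted p = 2.1e-07), and was at 0.95 and not called without RA replicate 2. Hormad1 went from 2.20 and 2.37 to 11.2 and 10.5 CPM (4.73-fold, adjusted p = 1.9e-08). Smc1b went from 2.60 and 2.51 to 8.03 and 8.66 CPM (3.26-fold, adjusted p = 3.6e-05). In each case both knockdown libraries were above both RA libraries. Stra8 stayed high, at 615 and 604 CPM against 755 and 813 (log2 −0.36, adjusted p = 0.013). Tex101 was at 2.07 and 2.24 against 1.85 and 1.72 CPM and was not called (log2 0.27, interval −0.49 to 1.02).

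In PlaB-treated cells the knockdown called 4 of the 9 genes, where 54.9% of all tested genes were called. Stra8 fell from 46.8 and 41.4 to 1.36 and 1.49 CPM, 30.8-fold lower (log2 −4.95 ± 0.20, adjusted p = 4.1e-18) and below the DMSO and ESC levels. Tex101 was 45.8-fold lower, from 494 and 563 counts to 10 and 8 (log2 −5.52 ± 0.38, adjusted p = 4.9e-13). Mael was 2.62-fold lower at 16.6 and 14.5 CPM (adjusted p = 1.3e-11). The libraries of the 2 groups were far apart for each of these genes. Smc1b moved the other way, from 3.15 and 4.31 to 25.9 and 27.6 CPM (7.14-fold higher, adjusted p = 1.2e-10). Dazl (log2 −0.84), Ddx4 (−0.97) and Sycp3 (−0.94) lay just under the fold threshold, and with DESeq2 size factors, DESeq2's own test or library size alone they passed it, which made 7 of the 9 called. Dazl remained at 29.5 and 28.9 CPM, above both control groups. The 2-cell marker sum fell in the same comparison from between 7168 and 7235 CPM to 4.95 and 5.08 CPM. The pluripotency markers rose in 5 of 6, where 26.1% of all tested genes were called higher. The part of the loss of the whole PlaB response in these changes was not tested.

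In Zscan4 OE cells the knockdown called 3 of the 9 genes, all 3 lower, where 11.1% of all tested genes were called and 5.35% were lower. Stra8 went from 14.8 and 12.6 to 3.63 and 1.35 CPM (5.32-fold lower, log2 −2.41 ± 0.21, adjusted p = 1.7e-09). Ddx4 went from 36.7 and 39.2 to 14.8 and 16.9 CPM (2.40-fold lower, adjusted p = 1.7e-08), close to its level in ESC cells. Sycp3 went from 9.57 and 7.98 to 2.53 and 3.23 CPM (3.05-fold lower, adjusted p = 2e-05). The libraries did not overlap for these 3 genes. The replicates of Dux KD Zscan4 OE differed more than those of most groups, and the Stra8 change was −3.35 without replicate 1 and −1.92 without replicate 2. Hormad1 (16.0 and 16.3 CPM), Dazl (37.7 and 28.5) and Smc1b (23.4 and 18.6) stayed near their Zscan4 OE levels (log2 0.33, −0.27 and 0.50). Zscan4c itself was at 0.779 and 1.13 CPM in Dux KD Zscan4 OE, against 99.9 and 103 in Zscan4 OE and 5.73 and 6.13 in ESC. The part of this lower Zscan4c level in the values of the 9 genes was not tested.

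The effect of the knockdown differed between inducers. The difference between the PlaB and the RA effect was tested for each gene and called for 7 of the 9, where 52.2% of all tested genes were called, and it was −5.78 for Tex101, −4.58 for Stra8 and −2.57 for Hormad1 on the log2 scale (adjusted p = 5e-10, 2.1e-15 and 2.4e-08). DESeq2 called 6 of the 9, because Smc1b, at 1.13 in edgeR, was at 0.98 with it and with DESeq2 size factors, and at 0.87 with library size alone. Mael, at −1.07, was at −0.90 with no low-count filter. The difference between the Zscan4 OE and the RA effect was called for 6 of the 9, all 6 lower, where 12.3% of all tested genes were called, 6.04% higher and 6.22% lower. Stra8 fell with the knockdown in PlaB and in Zscan4 OE cells, with log2 changes of −4.95 and −2.41, and its change in RA cells was −0.36. Of the whole responses, knockdown cells kept median ratios of 0.110 in PlaB, 0.865 in RA and 0.460 in Zscan4 OE. Groups without the inducer gave 0.0741 to 0.211, 0.229 to 0.545 and 0.245 to 0.718 in the same order. The part of the unequal losses of the knockdown cells in the differences was not tested.

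The last question was how the levels changed when the Tdpoz super-enhancer was deleted. In RA-treated cells 2 of the 9 genes were called, both lower, where 17.6% of all tested genes were called and 11% were lower. Dazl went from 58.4 and 47.2 to 19.07 and 20.26 CPM (2.68-fold lower, log2 −1.42 ± 0.14, adjusted p = 3.1e-09), and the change was −1.38 without SE KO RA replicate 1. Tex101 went from 42 and 37 to 14 and 23 counts (log2 −1.12 ± 0.41, adjusted p = 0.027), a call lost without RA replicate 1 (adjusted p = 0.10), RA replicate 2 (0.063) or SE KO RA replicate 1 (0.18). Hormad1 was at 1.02 and 1.56 against 2.20 and 2.37 CPM (log2 −0.81, adjusted p = 0.023) and passed the fold threshold, at −1.15, without SE KO RA replicate 2, and was at −0.54 (adjusted p = 0.22) without SE KO RA replicate 1. Stra8 was within replicate spread, at 746 and 781 against 755 and 813 CPM (log2 −0.04, interval −0.27 to 0.19). Without SE KO RA replicate 1 the sole call among the 9 was Dazl, Stra8 was at −0.0038, and the other 5 genes lay between −0.29 and 0.38. Dazl therefore moved in opposite directions with Dux knockdown and with the deletion in RA-treated cells, by 1.09 and −1.42, both against the same RA libraries.

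In PlaB-treated cells the deletion called 3 of the 9 genes, where 52% of all tested genes were called. Tex101 was 5.05-fold lower, at 3.38 and 6.43 CPM against 23.9 and 25.5 (adjusted p = 2.2e-08). Sycp1 was 2.87-fold higher, at 17.6 and 10.3 against 4.11 and 5.58 CPM (log2 1.52 ± 0.30, adjusted p = 5.2e-05). Sycp3 was 2.04-fold lower, at 7.19 and 3.91 against 9.58 and 13.2 CPM (adjusted p = 0.00012), a call lost without PlaB replicate 2 (−0.77) or SE KO PlaB replicate 2 (−0.64), with no low-count filter (−0.89) or with the groups compared alone (−0.94). The 2 SE KO PlaB libraries differed from each other in both synaptonemal complex genes. Mael (38.9 and 45.8 CPM), Dazl (75.1 and 56.2), Hormad1 (15.7 and 10.7) and Ddx4 (56.2 and 47.4) were not called, with log2 changes of 0.06 to 0.37. Stra8 was at 37.2 and 33.6 CPM (log2 −0.32). Thus Tex101 fell with both losses in PlaB-treated cells, whereas Mael and Stra8 fell with Dux knockdown and were not called after the deletion. Both groups had kept little of the whole PlaB response (median ratios 0.110 in Dux KD PlaB and 0.229 in SE KO PlaB). The part of that loss in these changes was not tested. The difference between the PlaB and the RA effect of the deletion was called for 5 of the 9, 3 higher and 2 lower, where 49% of all tested genes were called, 28.3% higher and 20.7% lower. For Dazl it was 1.75 on the log2 scale (adjusted p = 4.3e-09).

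In Dux OE cells the deletion called 0 of the 9 genes in edgeR and 0 in DESeq2, where 6.3% of all tested genes were called in edgeR and 4 of the 9 had an unadjusted p under 0.05. Hormad1 was at 2.57 and 1.57 against 3.79 and 4.26 CPM (log2 −0.94, adjusted p = 0.006), and it was called without Dux OE replicate 1 (−1.004) or SE KO Dux OE replicate 1 (−1.36). Mael was at 9.87 and 10.4 against 14.5 and 14.1 CPM (log2 −0.50, adjusted p = 0.0029). Smc1b varied between the 2 deletion libraries, at 11.01 and 5.75 CPM. In these libraries 3 of 4 fibroblast markers were higher than in Dux OE, where 2.46% of all tested genes were called higher. Col1a2 was at 19.9 against 0.738 CPM, and the summed level was 112 to 113 against 44.5 to 47.1 CPM. The part of those cells or transcripts in the values was not tested. The difference between the Dux OE and the RA effect of the deletion was called for 1 of the 9, Dazl (1.28, adjusted p = 1.2e-05), where 20.8% of all tested genes were called.

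**Figure D4:**
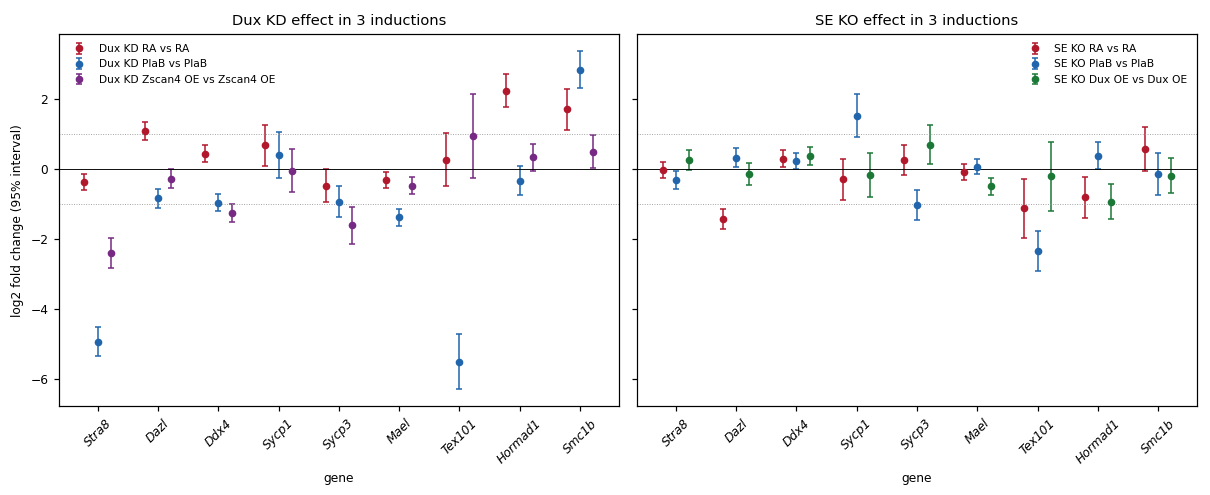
Log2 fold change of each of the 9 genes after Dux knockdown and after deletion of the super-enhancer, each against the inducer alone, with points for the estimates, bars for 95% intervals, dotted lines at the fold threshold and a colour for each inducer. Stra8 and Tex101 lie far below 0 after Dux knockdown in PlaB, and Dazl lies above 0 after Dux knockdown and below 0 after the deletion in RA.

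A wider list of 70 other germline genes, of which 68 were tested, gave the setting for these values. RA called 27 higher and 12 lower, with a median log2 change of 0.67 against 0.11 over all tested genes, and 20.6% and 10.4% of all tested genes were called higher and lower. PlaB called 34 higher and 15 lower (median 1.002 against 0.22), with 32.3% and 26.6% over all genes. Zscan4 OE called 19 higher and 1 lower (median 0.39 against 0.00, with 7.25% and 4.39% over all genes), Dux OE 7 higher and 0 lower (7.38% and 2.12% of all genes) and Dux R70A OE 13 higher and 7 lower against ESC cells (10.2% and 6.72%). Dux R70A OE against Dux OE called 6 higher and 12 lower (6.11% and 7.51%). Without ESC replicate 1 or 2 the Zscan4 OE count fell from 20 to 13 or 12, and the Dux OE count of 7 fell to between 2 and 4 without any one of the 4 libraries compared.

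The counts for smaller sets of that list are read beside the shares of all tested genes called higher and lower, which were 20.6% and 10.4% under RA, 32.3% and 26.6% under PlaB and 7.25% and 4.39% under Zscan4 OE. RA called 9 higher and 1 lower of 12 genes of spermatocytes and the sperm surface. Ly6k, a germ cell surface protein, rose from 0.387 to 7.34 CPM and Tuba3b from 2 to 257 counts in all (ratio 104, counting interval 28.6 to 866), although Tuba3b and Tuba3a are near-identical tubulin copies whose reads may be split. Tex13b fell from 40.6 to 2.19 CPM. Of 15 piRNA pathway genes, the partners of Mael, RA called 8 higher and 2 lower, and PlaB 8 higher and 2 lower. Tex19.1, which restrains transposons in germ cells, rose from 4.40 to 278 CPM under PlaB (log2 5.98, adjusted p = 2.5e-21), and Asz1, a protein of the germ cell mitochondrial membrane, from 0 to 103 counts (at least 28.8-fold higher). Of 6 axis and cohesin genes RA called 4 higher and 1 lower, among them Rec8, the meiotic kleisin of cohesin, at 147 against 13.1 CPM. This rise of Rec8 stood beside the fall of Smc1b, which belongs to the same complex.

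Of 16 recombination genes RA called 1 higher and 6 lower, PlaB 5 and 4 and Zscan4 OE 5 and 0, beside the same shares of all genes. Meiob, a single-strand DNA binding factor of meiotic recombination, fell from 4.62 to 0.700 CPM under RA. Of 6 other synaptonemal complex genes RA called 2 higher and 2 lower, and Syce2, of the central element, fell from 111 to 15.9 CPM. PlaB called 4 higher and 2 lower of that set, and Zscan4 OE 3 higher and 0 lower. Of a set of 5 genes (Gm4969, Meioc, Ythdc2, Ccnb3 and Rnf212), which mixes meiotic entry with a cyclin and a crossover factor, RA called 1 higher and 0 lower and PlaB 2 higher and 2 lower, with Ythdc2, an RNA helicase needed for the meiotic program, falling from 37.9 to 4.53 CPM. Of 8 germ cell RNA regulators RA called 2 higher and 0 lower and PlaB 5 higher and 2 lower.

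After Dux knockdown the wider list had 8 higher and 2 lower genes in RA, 9 and 27 in PlaB and 9 and 7 in Zscan4 OE cells. All tested genes gave 6.41% and 4.54%, 26.1% and 28.8%, and 5.78% and 5.35% in the same order. In PlaB the knockdown lowered Tex19.1 from 278 to 27.6 CPM and Slc25a31, a germ cell ADP/ATP carrier, from 33.9 to 2.79, and raised Ythdc2 to 41.7 and Meioc, its meiotic partner, from 8.65 to 64.4 CPM. In RA it lowered Rec8 from 147 to 45.8 CPM and raised Fkbp6, a piRNA pathway factor, from 3.98 to 11.03. After the deletion the list had 6 higher and 20 lower genes in RA (6.57% and 11% of all genes), 11 and 23 in PlaB (25.9% and 26.1%) and 5 and 4 in Dux OE cells (2.46% and 3.84%). Without SE KO RA replicate 1 the count in RA was 5 higher and 19 lower (5.32% and 8.29% of all genes). In RA the deletion lowered Fkbp6 to 0.444 CPM and raised Tex13b from 2.19 to 15.3, with both called without SE KO RA replicate 1 (log2 −3.21 and 2.83), and in PlaB it raised Meioc to 125 CPM and lowered Gtsf1, a piRNA factor, from 5.92 to 1.02. Fkbp6, like Dazl, thus rose with the knockdown and fell with the deletion in RA-treated cells. DMSO against ESC cells had 13 higher and 14 lower (8.32% and 7.91%), with Tex13b at 40.6 against 0.902 CPM and Tex19.1 at 4.40 against 36.2 CPM.

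**Figure D5:**
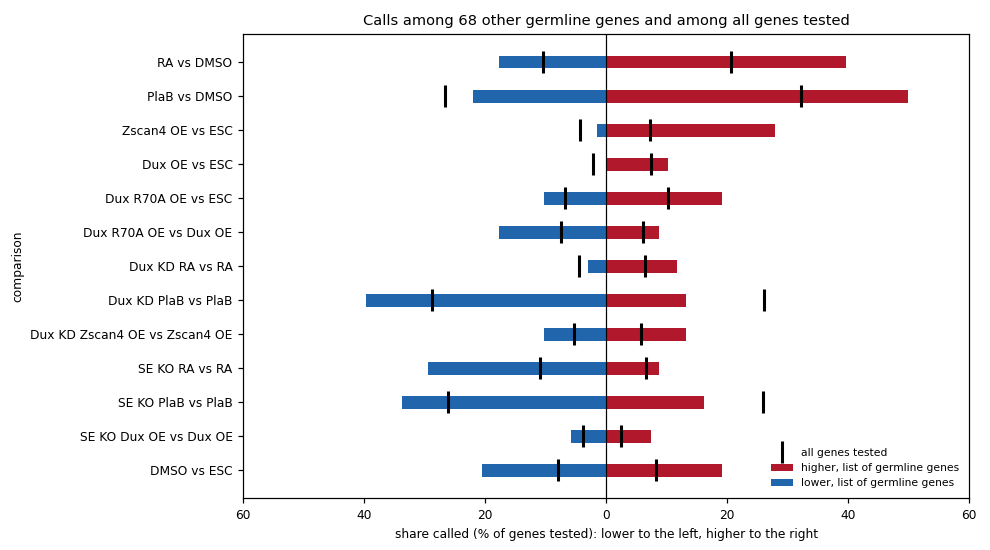
Share of the 68 tested genes of the wider germline list called higher (bars to the right) and lower (bars to the left) in the 13 comparisons (y axis), in percent on the x axis, with black ticks for the share over all tested genes. The longest bars stand for 34 higher genes in PlaB against DMSO and 27 lower genes in Dux KD PlaB against PlaB.

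Of 15 genes known to hold germline genes silent in ESCs, RA called 0 higher and 5 lower, where 20.6% and 10.4% of all tested genes were called, with Dnmt3b, a DNA methyltransferase, at log2 −1.81 and L3mbtl2, a PRC1.6 subunit, at −1.18. PlaB called 0 higher and 9 lower (32.3% and 26.6% of all genes), with Ehmt2, a histone H3K9 methyltransferase, at 10.9 against 166 CPM and Mga at 56.2 against 328 CPM. Zscan4 OE, Dux OE, Dux R70A OE and DMSO against ESC cells called 0 of the 15 in edgeR and 0 in DESeq2. Over all tested genes 11.6%, 9.51%, 16.9% and 16.2% were called in the same order. An unadjusted p under 0.05 in edgeR was found for 11, 8, 9 and 7 of the 15. In PlaB-treated cells 8 of these genes rose and 1 fell with Dux knockdown (26.1% and 28.8% of all genes), and 7 rose and 0 fell with the deletion (25.9% and 26.1%). Whether these levels bear on the 9 genes was not tested.

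The 7 retinoic acid responsive genes were higher in RA in 7 of 7, where 20.6% of all tested genes were called higher. Cyp26a1, the retinoic acid hydroxylase, was at 70.6 against 0.304 CPM. Their summed level was 298 to 306 CPM in RA, 369 to 372 in Dux KD RA and 266 to 274 in SE KO RA, so the 3 groups in which Stra8 was highest were also those with the highest sum. PlaB reached 26.8 to 27.8 CPM and DMSO 10.3 to 11.8. Some markers of other cell types also moved under RA. The sum of 5 primitive endoderm markers was 57.2 to 58.6 CPM against 5.75 to 6.01 in DMSO, and the sum of 5 Sertoli cell markers 152 to 171 against 79.0 to 80.4, with Sox9 at 39.2 against 0.0283 CPM. In PlaB the primitive endoderm sum was 22.6 to 26.3 CPM, and the Sertoli sum was lower than in DMSO, at 12.5 to 13.3 CPM. The sum of 5 neural markers was 144 to 153 CPM in RA and 126 to 142 in PlaB, against 143 to 156 in DMSO. The sum of 5 Leydig cell markers was 16.3 to 19.9 CPM in RA and 25.9 to 31.5 in PlaB, against 10.7 to 12.4 in DMSO. The sum of 5 fibroblast markers was 51.3 to 60.2 CPM in RA and 9.44 to 12.1 in PlaB, against 34.1 to 34.9 in DMSO. The part of these cell types or transcripts in the values of the 9 genes was not tested.

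Across the 13 group means, the levels of pairs of the 9 genes had Pearson correlations from −0.73 to 0.80 with a median of 0.34 over 36 pairs, which describes groups that share controls and treatments. Mael went most closely with Tex101 (0.801), Dazl (0.794) and Ddx4 (0.793), and Stra8 went against Smc1b (−0.725). Among 14390 genes searched, the gene most like Stra8 was Enpp4 (r = 0.970), followed by Greb1l (0.960). For Dazl they were 5830418P13Rik (0.948) and Tktl2 (0.930), and for Tex101 Chpf2 (0.974) and Lrpap1 (0.966). Smc1b was most like Zfand1 (0.953) and Fxr1 (0.922), and Sycp3 most like Il17ra (0.917) and Bhlhe41 (0.903). For Mael they were Gm11620 (0.934) and Alppl2 (0.920), and for Hormad1 1700003M07Rik (0.916) and Zfp995 (0.911). Ddx4 (Ccdc28a, 0.846, and Cxcl16, 0.845) and Sycp1 (Eda2r, 0.854, and Ndfip2, 0.848) had the least close matches.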

How the data were processed

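Poly(A) RNA of 26 mouse R1 ESC libraries was sequenced by the authors after preparation with the NEBNext Ultra II RNA kit. Per the labels, the tools named in the submitters' processing notes are FastQC, Trimmomatic, STAR, featureCounts and DESeq2, with build mm10, and versions and the strand setting of counting were not given in the sources used here. The deposited values are raw read counts per gene, 1 column per library, and no column was left unused. Groups came from the labels. The 9 genes and the gene lists were chosen with earlier results of these data known.

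Genes with few reads were removed with filterByExpr by group, which left 20953 of 55291 genes. Counts were scaled by TMM (factors 0.889 to 1.13) and fitted in edgeR 4.0.16 (R 4.3.3, limma 3.58.1) as 1 quasi-likelihood model of all 26 libraries with a mean per group (common biological coefficient of variation 0.0833). P-values were adjusted by the Benjamini-Hochberg method over all genes tested in each of 13 comparisons and 4 differences of effects. Fold changes used a prior count of 0.125. Where a group held no counts, a fold is a bound against 3 counts over the group. Counting intervals are exact 95% intervals, and they and the floors cover counting error alone. The steps were tested on simulated counts.

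Named genes were the 9, the 3 called genes of the wider list with the largest rise or fall at an average log2 CPM of at least −1, up to 3 called genes of the smaller lists, and the 2 genes most correlated with each of the 9 at an average log2 CPM of at least 0. Rec8 under RA falls outside that rule and was named after its values were seen.

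Replicates differed by more than counting noise in each group (chi-square per degree of freedom 1.55 to 30.2, r of log2 CPM 0.983 to 0.992), with the largest values in SE KO PlaB and Dux KD Zscan4 OE. Alternatives were DESeq2 1.42.0, its size factors, library size alone, no low-count filter, fits of the groups compared alone, the other control group, a replicate block and leaving out each library. Promoter sequences and positions were read with Python 3.11.15.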

Additional observations from a re-analysis of the deposited data

Results flagged for a closer look

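The effect of losing Dux or the super-enhancer differed between inducers, by a test of the difference itself in edgeR (Benjamini-Hochberg adjustment over all tested genes), for 19 values of the 9 genes. Values are log2 differences of 2 effects, and those of one loss share the RA libraries. The part of the lost whole PlaB response in the PlaB differences was not tested. The Dux knockdown effect in PlaB minus that in RA was −4.58 for Stra8 (adjusted p = 2.1e-15), −5.78 for Tex101 (5e-10), −2.57 for Hormad1 (2.4e-08), −1.94 for Dazl (5.2e-10), −1.41 for Ddx4 (3.3e-08), −1.07 for Mael (1.4e-06) and 1.13 for Smc1b (0.014), where 52.2% of all tested genes were called. The Mael difference was under the fold threshold without Dux KD PlaB replicate 2 (−0.86), Dux KD RA replicate 1 (−0.97), PlaB replicate 2 (−0.99) or RA replicate 1 (−0.97), and with no low-count filter (−0.90). The Smc1b difference was lost with DESeq2 size factors (0.98), DESeq2 (0.98), which called 6 of the 9, and library size alone (0.87, adjusted p = 0.069).

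The knockdown effect in Zscan4 OE minus that in RA was −2.05 for Stra8 (adjusted p = 5.5e-07), −1.91 for Hormad1 (2.1e-05), −1.70 for Ddx4 (4e-08), −1.37 for Dazl (3.8e-06), −1.21 for Smc1b (0.015) and −1.13 for Sycp3 (0.014), where 12.3% of all tested genes were called. The Sycp3 difference was lost without Dux KD RA replicate 2 (adjusted p = 0.057), Dux KD Zscan4 OE replicate 1 (0.077) or Zscan4 OE replicate 1 (0.060), and the Smc1b difference without RA replicate 2 (0.052).

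The deletion effect in PlaB minus that in RA was 1.75 for Dazl (adjusted p = 4.3e-09), 1.82 for Sycp1 (0.00039), 1.18 for Hormad1 (0.0039), −1.29 for Sycp3 (0.00056) and −1.22 for Tex101 (0.039), where 49% of all tested genes were called. The Tex101 difference was lost without either PlaB, either RA or SE KO RA replicate 2, or SE KO PlaB replicate 1, Sycp3 without SE KO PlaB replicate 2 (−0.89) and Hormad1 without SE KO PlaB replicate 1 (0.90) or SE KO RA replicate 1 (0.94). The deletion effect in Dux OE minus that in RA was 1.28 for Dazl (adjusted p = 1.2e-05), where 20.8% of all tested genes were called.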

How the results depend on the processing

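Of 1480 values of single genes under the alternatives, 1354 kept their direction and side of the threshold, as did 173 of 191 counts of called members within 1.5 times. With DMSO as the control, the members called went from 6 to 3 for Zscan4 OE, from 0 to 4 for Dux OE and from 3 to 1 for Dux R70A OE, the germline list for Dux OE from 7 to 26, and all genes from 1992 to 3811 for Dux OE and from 3550 to 1897 for Dux R70A OE. Signs then turned for Stra8 (−0.51), Sycp3 (−0.22) and Tex101 (0.90) under Zscan4 OE, for Stra8 (−0.27), Ddx4 (−0.60), Sycp1 (−0.0129), Sycp3 (−2.08), Tex101 (1.83) and Smc1b (−0.0870) under Dux OE, and for Ddx4 (−0.21), Sycp3 (−0.34), Tex101 (0.34), Hormad1 (0.83) and Smc1b (−0.28) under Dux R70A OE. With ESC cells as the control of RA, Ddx4 was 0.62, Sycp3 2.31 and Hormad1 −0.74.

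Dux KD PlaB against PlaB called 7 members rather than 4 with DESeq2 size factors, library size alone or DESeq2. Dux R70A OE against Dux OE called 2 rather than 1 with no low-count filter, the replicate block, the groups compared alone or DESeq2. The germline list for Dux OE went from 7 to 4 with no filter, and all genes for Dux KD Zscan4 OE from 2331 to 1547 with the groups compared alone. Values near 0 changed sign for Mael in SE KO PlaB against PlaB (−0.0664 with DESeq2 size factors, −0.0660 with library size, −0.0667 with DESeq2), Ddx4 in RA (0.13) and Smc1b in Dux R70A OE against Dux OE (0.0021) with library size, and Sycp3 in PlaB with no filter (−0.0122). Same-numbered replicates correlated by −0.0473 to 0.0237 over 13 comparisons, so the numbers pair nothing, and the block changed no other count by over 1.5 times.

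Library size alone moved the median of all genes by 0.19 in RA, 0.26 in PlaB, 0.15 in Zscan4 OE, 0.20 in Dux R70A OE against ESC, 0.18 in Dux R70A OE against Dux OE, −0.20 in Dux KD PlaB and −0.12 in SE KO PlaB. Higher and lower calls were then 5042 and 1528 in place of 4320 and 2180 in RA, 1969 and 603 in place of 1520 and 919 in Zscan4 OE, 2998 and 870 in place of 2143 and 1407 in Dux R70A OE against ESC, and 1902 and 1329 in place of 1280 and 1574 in Dux R70A OE against Dux OE.

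Leaving out a library gave 0 to 1 members in Dux OE (Dazl, without Dux OE replicate 1 or ESC replicate 2), 0 to 1 in SE KO Dux OE, 1 to 3 in SE KO RA and 1 to 2 in the deletion effect in Dux OE minus RA. The germline list had 12 to 17 genes in Zscan4 OE and 2 to 4 in Dux OE, and all genes in SE KO Dux OE 794 to 1112, lowest without Dux OE replicate 2. Ranges that crossed 0 were, in Dux OE, −0.0250 to 0.12 for Ddx4, −0.0552 to 0.13 for Hormad1 and −0.71 to 0.38 for Tex101, in RA −0.14 to 0.0074 for Ddx4, and in PlaB −0.10 to 0.27 for Sycp3. After the deletion they were −0.0382 to 0.20 for Mael and −0.81 to 0.34 for Smc1b in PlaB, −0.0891 to 0.0159 for Stra8 in RA, and −0.75 to 0.21 for Smc1b, −0.59 to 0.15 for Sycp1 and −0.68 to 0.20 for Tex101 in Dux OE. Sycp1 in Dux KD Zscan4 OE ran from −0.94 to 0.51 and Smc1b in Dux R70A OE against Dux OE from −0.41 to 0.0036. A group left with 1 library was assumed to vary like the others. The cause of these moves was not tested. With 2 libraries a group, Tex101 outside PlaB rests on few counts.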

Other observations

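Of 7 genes of primordial germ cell specification, the step before the 9 genes come on in the embryo, PlaB called 3 higher and 4 lower, where 58.9% of all tested genes were called. Dppa3 rose by 3.00 on the log2 scale and Nanos3 by 2.06, while Prdm14 (−3.08) and Prdm1 (−2.38), transcription factors of the early germ cell program, were lower. RA called Kit higher (1.02) and Dppa3 lower (−1.37), where 31% of all were called. In RA-treated cells the deletion called 4 of the 7 lower, with Prdm1 at −2.30, where 17.6% of all were called, and without SE KO RA replicate 1 it called 3 of the 7 lower, with Prdm1 at −2.42. Dux knockdown in PlaB called 4 higher and 3 lower, where 54.9% of all were called.

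Duxf3 was also lower after deletion of the super-enhancer, with log2 changes of −3.18 in RA (−2.51 without SE KO RA replicate 1), −2.22 in PlaB and −1.40 in Dux OE cells, with the same limit of repeat copies.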
